A study of Mus musculus with 16 samples.

Results

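The 37 genes described here encode the enzymes and carriers that bring pyruvate into the mitochondrion, convert it to acetyl-CoA or oxaloacetate, and run the citrate cycle. They were taken from the expression table as every entry whose RefSeq transcript maps to 1 of the 37 gene symbols. This gave 97 of the 130343 entries of the table, of which 64 had at least 1 count and 38 had enough counts for a test (CPM, the count scaled to the library total, above 1 in 3 or more libraries). Each gene is represented by its entry with the highest mean CPM over all 16 libraries, called its leading entry, and the leading entries of 32 genes were tested. The 5 genes without a test were Pdp1, Ogdh, Suclg2, Mdh1 and Me2.

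RNA was measured by poly(A) RNA-seq in inguinal subcutaneous adipose tissue (SAT) and mesenteric visceral adipose tissue (VAT) of 8 male wild-type C57BL/6J mice. From 10 weeks of age, 4 lean mice were kept on a normal laboratory diet and 4 obese mice were fed a high-fat diet with 42% of its energy from fat and 0.2% cholesterol, in both cases for 12 to 14 months. Each mouse gave 1 SAT and 1 VAT library, so the 16 libraries form 4 groups of 4 (lean SAT, obese SAT, lean VAT and obese VAT). Both inguinal depots of a mouse were combined into its SAT sample, and vessels that could be seen were removed from the depots, so that the bulk tissue can hold adipocytes, immune cells, remaining endothelial cells and, in VAT, mesothelium.

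Pyruvate made by glycolysis crosses the inner mitochondrial membrane through the carrier Mpc1/Mpc2. The pyruvate dehydrogenase (PDH) complex, built from Pdha1, Pdhb, Dlat, Pdhx and Dld, turns it into acetyl-CoA, and is switched off by the kinases Pdk1 to Pdk4 and back on by the phosphatases Pdp1 and Pdp2. Pyruvate carboxylase (Pcx) instead makes oxaloacetate, which citrate synthase (Cs) joins to acetyl-CoA. In adipocytes citrate leaves the mitochondrion to supply cytosolic acetyl-CoA for fatty acid synthesis, and cytosolic malic enzyme and Idh1 supply NADPH for it. Pck1 makes phosphoenolpyruvate from oxaloacetate and feeds glycerol synthesis for triglyceride storage.

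Dlat, Cs, Pcx and Idh1 were the 4 members called for a difference in diet response between VAT and SAT. The call was lost in 10 of 16 other fits for Cs and in 1 each for Pcx and Idh1. Promoter sequences are shown for these 4 members. They are the 250 bases before a RefSeq transcription start in mouse build GRCm38.p6, written 5′ to 3′ on the gene's strand; the expression table itself uses build GRCm39. Capitals mark matches, on either strand, to CCAAT or to the E-box CACGTG.
Dlat, chr9:50659781-50660030, minus strand: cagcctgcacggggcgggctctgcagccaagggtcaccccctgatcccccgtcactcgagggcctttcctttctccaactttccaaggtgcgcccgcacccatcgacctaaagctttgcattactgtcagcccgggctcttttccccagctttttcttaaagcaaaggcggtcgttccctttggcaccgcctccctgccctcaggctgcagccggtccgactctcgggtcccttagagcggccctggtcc
Cs, chr10:128337477-128337726, plus strand: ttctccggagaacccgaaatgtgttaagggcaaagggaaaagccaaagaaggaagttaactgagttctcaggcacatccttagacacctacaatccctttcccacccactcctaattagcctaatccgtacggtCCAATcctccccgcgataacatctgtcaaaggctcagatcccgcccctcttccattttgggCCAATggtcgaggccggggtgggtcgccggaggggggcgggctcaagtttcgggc
Pcx, first start, chr19:4510222-4510471, plus strand: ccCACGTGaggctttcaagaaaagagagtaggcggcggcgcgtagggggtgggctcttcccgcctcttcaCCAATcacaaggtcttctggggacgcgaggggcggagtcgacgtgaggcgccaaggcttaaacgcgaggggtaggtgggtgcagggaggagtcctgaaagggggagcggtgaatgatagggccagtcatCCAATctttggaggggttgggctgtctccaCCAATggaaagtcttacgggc
Idh1, first start, chr1:65186480-65186729, minus strand: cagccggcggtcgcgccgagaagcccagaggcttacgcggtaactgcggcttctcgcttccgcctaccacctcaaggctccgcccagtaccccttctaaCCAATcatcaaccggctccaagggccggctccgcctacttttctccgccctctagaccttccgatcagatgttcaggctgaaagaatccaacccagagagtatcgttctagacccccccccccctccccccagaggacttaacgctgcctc

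The windows were searched on both strands for 5 short motifs. CCAAT occurred in 52.3% of 44 promoter entries that belong to 34 of the 37 genes and in 33.8% of all 32851 promoters. CACGTG was found in 13.6% against 6.02%, the hormone receptor half-site AGGTCA in 11.4% against 14.0%, the NRF1 motif core GCGCATGC in 4.55% against 2.26%, and the extended half-site TCAAGGTCA, which contains AGGTCA, in 0 against 0.387%. Cs held 2 matches to CCAAT, the first Pcx start 3 matches to CCAAT and 1 to CACGTG, the first Idh1 start 1 match to CCAAT, and Dlat no match. The other Pcx and Idh1 starts, at chr19:4594069-4594318 and chr1:65179143-65179392, held no match. A match says only that these letters are in the window.

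Total counts ranged from 4604460 to 11897722 in lean SAT, 10828758 to 16614407 in obese SAT, 1256082 to 15802634 in lean VAT and 2247737 to 11615347 in obese VAT. A single entry took up to 25.7% of the counts of an obese SAT library, so values are given as TMM-scaled CPM, which corrects CPM for such shifts in composition (factors from 0.788 to 1.25). Counts were assigned to transcripts, and the 16 members with 1 entry held 95.3% of all member counts, with a median of 45084 counts per gene over all libraries, against 1248 for the 21 members with several entries. Low values of genes with several entries are therefore not read as low expression, and levels are not compared between genes. Mdh1, the cytosolic malate dehydrogenase, is listed at 0 in both of its entries in all 16 libraries. The other 4 untested genes totalled 26 counts (Ogdh), 31 (Pdp1), 81 (Me2) and 84 (Suclg2).

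The first question was how the members responded to the long-term high-fat diet in each tissue. In VAT, 9 of the 32 members were downregulated in obese mice and 1 (Got2) was upregulated, at an adjusted p below 0.05 (edgeR quasi-likelihood F-test, Benjamini-Hochberg over all 13288 entries tested). The 9 became 5 without lean replicate 3, obese replicate 2 or obese replicate 4 and 14 with DESeq2, and Got2 was called in 3 of 17 other fits. Over all entries 10.9% were called in VAT, 4.09% in the downward direction and 6.82% upward. The median log2 fold change of the 32 members in VAT was -0.39, against 0.02 over all entries, and 25 of the 32 were below 0. The lean and obese VAT libraries did not overlap for 9 members that were lower and 1 that was higher in obese mice, against 5% and 8.32% of all entries. In SAT, 1 member (Pdk4) was upregulated and 2 (Pdk3 and Idh3b) were downregulated, where 11% of all entries were called (6.2% upward and 4.85% downward), and the median of the members was -0.09 against 0.01. Leaving out lean replicate 2, lean replicate 3 or obese replicate 3 lowered the number downregulated in SAT from 2 to 1. In the fit lacking obese replicate 3, Pdk3 (adjusted p = 0.075) and Idh3b (0.0556) both missed the threshold, and the 1 member called was another. The number rose to 4 when lean replicate 4 was dropped, or with DESeq2 or limma voom, and to 5 when lean replicate 1 was dropped. The SAT groups did not overlap for 1 member that was higher and 4 that were lower, against 9.62% and 7.63% of all entries. No called member moved beyond the log2 fold change of 1.5 that the study also required. Bulk tissue was measured, so fewer cells of a type and less RNA per cell cannot be told apart.

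**Figure D1:**
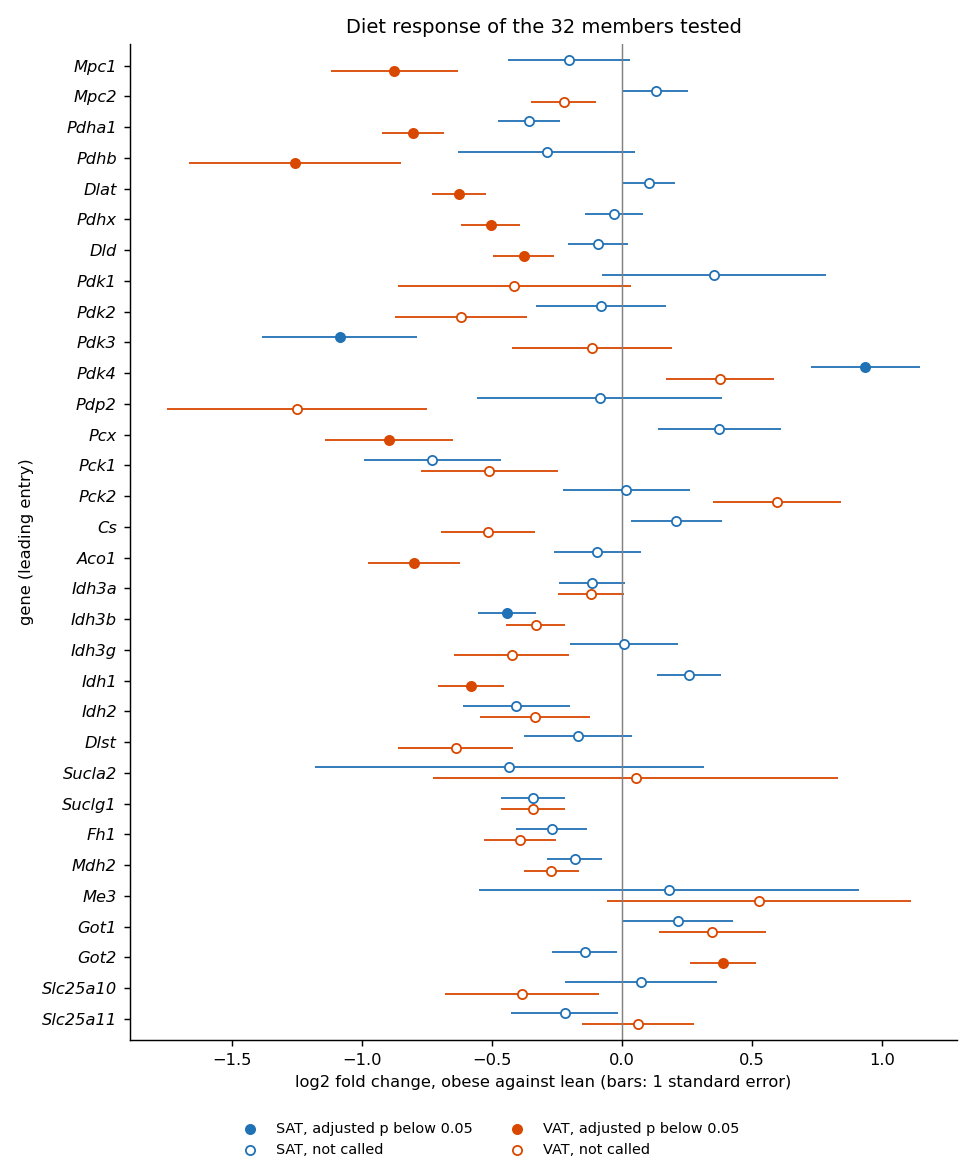
Log2 fold change of obese against lean mice for the leading entry of each of the 32 members tested, in SAT (blue) and VAT (orange), with bars of 1 standard error; filled points passed an adjusted p of 0.05. In VAT 9 filled points lie below 0 and 1 above, and all 5 PDH complex subunits are among those below.

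All 5 subunits of the PDH complex were downregulated in obese VAT, with 3 of these calls (Pdha1, Dlat and Pdhx) kept in every other fit that was run. In SAT 0 of the 5 passed the edgeR test, 1 (Pdha1) had an unadjusted p under 0.05, and DESeq2 and limma voom called 1 each. With counts summed per gene Pdha1 passed in SAT as well (adjusted p = 0.0414). It has 1 entry, so its own counts did not change in that fit. Pdha1, the catalytic alpha subunit of the E1 component (GRCm39 chrX:158904237-158921426), was at 1091, 1365, 1397 and 1265 CPM in lean VAT and at 649, 789, 796 and 697 in obese VAT, and the groups did not overlap. This is a 1.75-fold lower level (log2 fold change -0.80 ± 0.12, SE, adjusted p = 9.95e-05). In SAT it was at 930, 1156, 1228 and 996 CPM in lean mice and 771, 804, 818 and 973 in obese mice, which overlap (log2 fold change -0.36, adjusted p = 0.0536).

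Dlat, the acetyltransferase core of the complex (chr9:50543457-50571277), was at 305, 263, 286 and 289 CPM in lean VAT and at 175, 191, 190 and 183 in obese VAT. All 4 obese libraries were below all lean ones, 1.54-fold on the fitted scale (log2 fold change -0.63 ± 0.10, adjusted p = 0.000294). In SAT the values went from 309, 319, 347 and 369 in lean mice to 325, 382, 335 and 401 in obese mice and overlapped (log2 fold change 0.10, adjusted p = 0.583). The diet response of Dlat differed between the tissues by -0.73 ± 0.14 in log2 (adjusted p = 0.0067, mouse as block).

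Pdhx, which anchors Dld to the core, was at 116, 99.7, 112 and 104 CPM in lean VAT against 69.8, 87.9, 78.5 and 66.0 in obese VAT, without overlap (log2 fold change -0.51 ± 0.11, adjusted p = 0.00512). In SAT it was at 110, 104, 116 and 121 CPM in lean and 110, 105, 104 and 122 in obese mice, which overlap (log2 fold change -0.03, adjusted p = 0.903). Dld, the dehydrogenase that the complex shares with the oxoglutarate dehydrogenase complex, was at 501, 665, 701 and 674 in lean VAT and 473, 499, 529 and 455 in obese VAT. Its groups overlapped through lean replicate 1, and the call (log2 fold change -0.38 ± 0.12, adjusted p = 0.0372) was lost in 7 of 17 other fits, 6 of which left out 1 mouse. In SAT Dld was at 659, 753, 807 and 734 in lean and 636, 656, 673 and 804 in obese mice, with overlap. Pdhb, the beta subunit of E1, had only 368 counts over the 16 libraries, and went from 4.46, 2.38, 2.14 and 2.64 CPM to 1.52, 0.986, 1.53 and 0.597. Those groups did not overlap (log2 fold change -1.26 ± 0.41, adjusted p = 0.0479), but the call was lost in 10 of 17 other fits. In SAT Pdhb was at 2.22, 2.66, 3.9 and 4.24 in lean and 3.76, 1.90, 1.44 and 3.31 in obese mice.

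**Figure D2:**
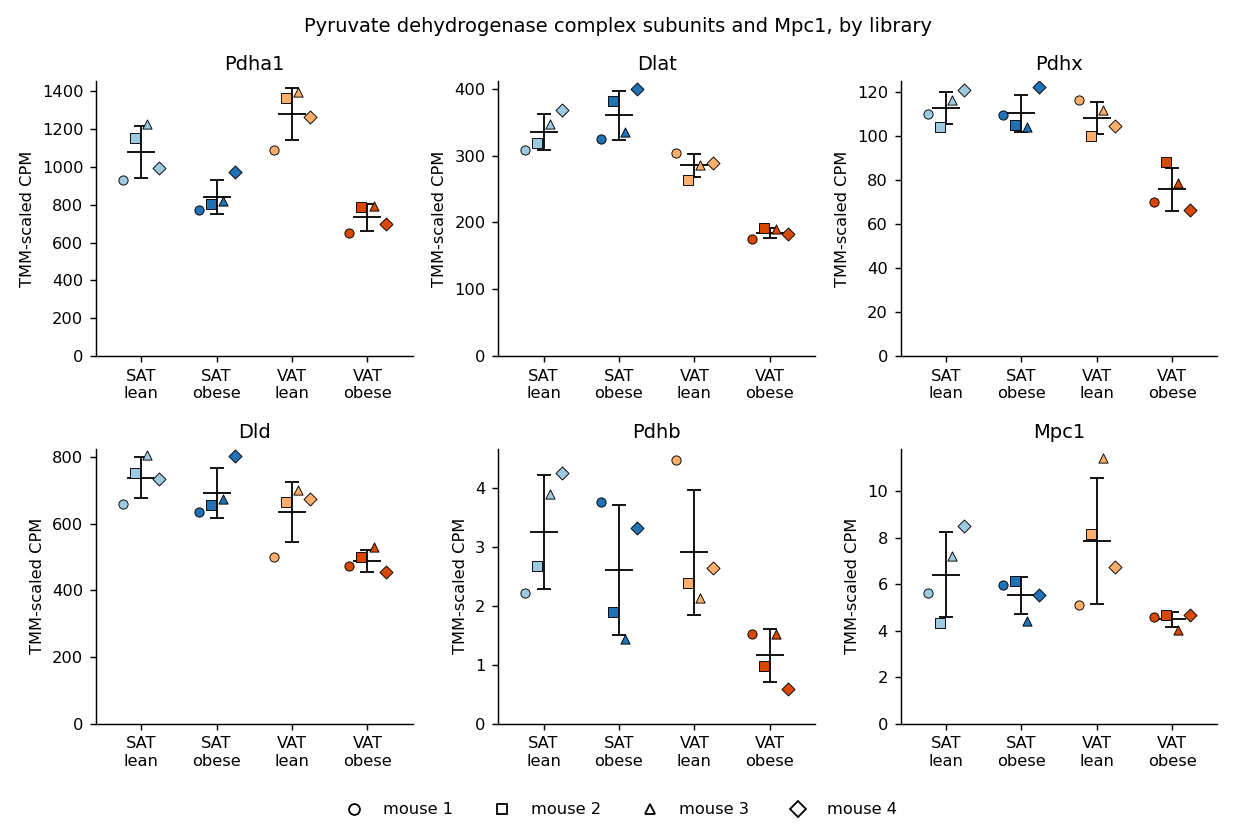
TMM-scaled CPM of the 5 PDH complex subunits and the pyruvate carrier subunit Mpc1 in every library; each symbol is 1 mouse of the diet group (the lean and obese mice of 1 number are different animals), and the bar and whiskers are the mean ± SD of 4 libraries. Pdha1, Dlat, Pdhx, Pdhb and Mpc1 were lower in every obese VAT library than in every lean VAT library, and the Dld groups overlapped through 1 lean library.

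The 5 subunits summed to 2017 to 2497 CPM in lean VAT and to 1368 to 1596 in obese VAT, whereas the SAT ranges, 2010 to 2502 in lean and 1845 to 2303 in obese mice, overlapped. Markers of cell types moved as well. All 10 macrophage markers tested of 12 listed were higher in obese VAT (median log2 fold change 1.55), and their sum went from 2222 to 2942 CPM in lean VAT to 4836 to 8211 in obese VAT. Of 12 adipocyte markers tested, 7 were lower in obese VAT (median -0.63), among them Adipoq (log2 fold change -0.58) and Lpl (-0.59), and 0 were higher. Relative to the summed adipocyte markers, the PDH complex was at 4.09 to 4.83% in lean VAT and 3.78 to 4.50% in obese VAT, ranges that overlap. This ratio is mostly one of 4 genes, since Lpl and Fabp4 made up 78.8 to 89.8% of the adipocyte sum, and Pdha1 and Dld 74.9 to 84.7% of the PDH sum, over the 16 libraries. It therefore weighs the other subunits and markers little.

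Nuclear-encoded subunits of the respiratory chain and ATP synthase, which work in the same organelle, were read beside the PDH complex. Of 62 tested, 4 were lower and 0 higher in obese VAT, with a median log2 fold change of -0.03. Relative to the sum of these subunits the PDH complex was at 20.4 to 22.5% in lean VAT and at 14.9 to 17.6% in obese VAT, ranges that did not overlap, while lean and obese SAT lay at 16.2 to 18.01% and 17.3 to 18.7%. In SAT 7 macrophage markers were higher (median 0.79), 3 adipocyte markers were lower (median -0.22), and 3 respiratory chain subunits were lower (median -0.22). Of the other lists in SAT, 2 of 6 brown and beige adipocyte markers were higher and 2 lower, 1 of 6 T cell markers was higher, 1 of 3 skeletal muscle markers was lower and 1 of 3 exocrine pancreas markers was higher. None of 6 B cell, 8 mesothelial, 7 endothelial or 6 intestinal epithelium markers was called in SAT by edgeR, DESeq2 or limma voom, and 0, 0, 2 and 1 of them had an unadjusted p under 0.05. Of the other marker lists in obese VAT, 3 of 6 B cell and 4 of 6 T cell markers tested were higher, 2 of 6 brown and beige adipocyte markers were higher and 1 was lower, 3 of 6 intestinal epithelium markers were lower, 1 of 3 exocrine pancreas markers was higher, and none of 7 endothelial, 8 mesothelial or 3 skeletal muscle markers was called by edgeR, DESeq2 or limma voom (0, 1 and 0 with an unadjusted p under 0.05). The part of these shifts in cell makeup in the member results was not tested.

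**Figure D3:**
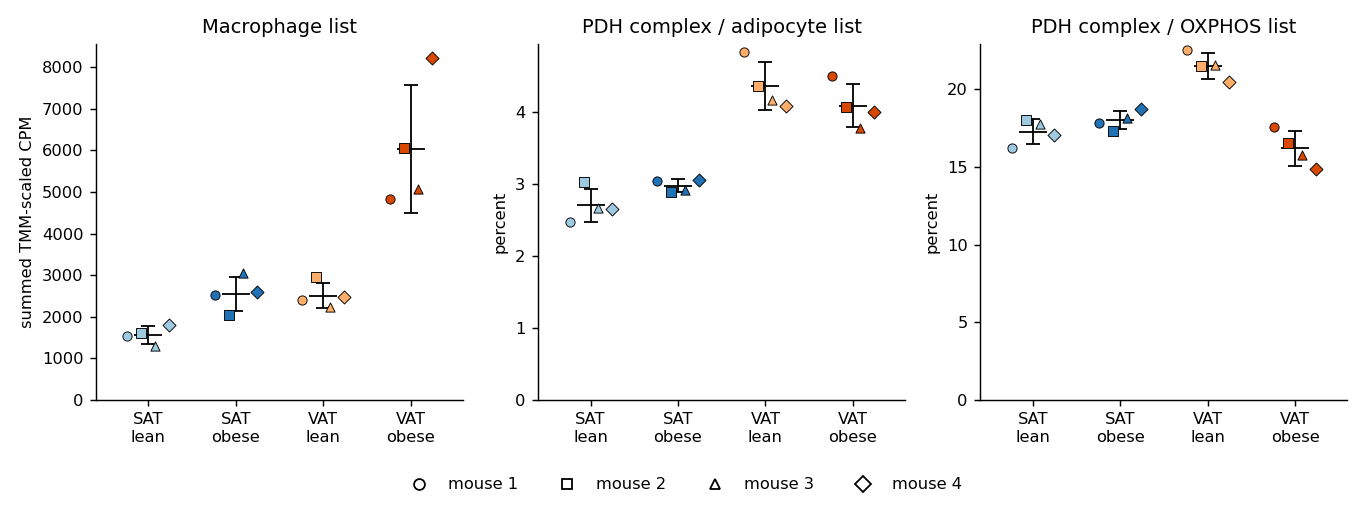
Summed TMM-scaled CPM of the macrophage list (left), the summed PDH complex as a percent of the summed adipocyte markers (middle) and as a percent of the summed nuclear-encoded respiratory chain subunits (OXPHOS, right), per library, with the mean ± SD of 4 libraries. Obese VAT lies below lean VAT on the right without overlap, and the same groups overlap in the middle.

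Upstream of the complex, Mpc1, a subunit of the pyruvate carrier, was at 5.10, 8.16, 11.4 and 6.71 CPM in lean VAT and at 4.57, 4.68, 4.01 and 4.69 in obese VAT. The groups did not overlap (log2 fold change -0.88 ± 0.24, adjusted p = 0.0211), and the call was lost when lean replicate 3, the highest library, or obese replicate 2, 3 or 4 was left out (highest adjusted p 0.143). Its partner Mpc2 averaged 141 ± 14.2 CPM in lean VAT and 120 ± 15.0 in obese VAT (log2 fold change -0.23, adjusted p = 0.297). Neither carrier subunit passed the test in SAT, with log2 fold changes of -0.21 for Mpc1 and 0.13 for Mpc2.

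Among the regulators of the complex, a kinase rose and another fell in SAT of obese mice. Pdk4, the kinase induced by fasting and fatty acids, was at 164, 299, 248 and 184 CPM in lean SAT and at 372, 427, 373 and 538 in obese SAT, so that every obese library was above every lean one. The difference was 1.91-fold (log2 fold change 0.93 ± 0.21, adjusted p = 0.00519) and passed the test in all 17 other fits. In VAT Pdk4 was at 233, 376, 216 and 334 in lean mice and 313, 507, 273 and 414 in obese mice, which overlap (log2 fold change 0.38 ± 0.21, adjusted p = 0.288). The difference of these responses did not pass the test (-0.58 ± 0.20, adjusted p = 0.134).

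Pdk3, another kinase of the complex, had few counts (480 in all libraries) and was at 4.12, 5.05, 3.71 and 3.82 CPM in lean SAT and 2.15, 2.22, 1.44 and 2.08 in obese SAT. The groups did not overlap (log2 fold change -1.08 ± 0.30, adjusted p = 0.020), and the call was lost without lean replicate 2 or obese replicate 3. In VAT it was at 1.91, 4.11, 4.17 and 2.2 in lean and 4.96, 3.78, 2.29 and 2.22 in obese mice, which overlap (log2 fold change -0.12, adjusted p = 0.870). Pdk2 averaged 13.4 ± 4.00 CPM in lean VAT and 8.50 ± 1.48 in obese VAT (log2 fold change -0.62, adjusted p = 0.127). Pdk1, whose leading entry is a non-coding RefSeq transcript model, and the phosphatase Pdp2 were between 0.561 and 3.96 CPM in all libraries and passed no test.

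Of the 32 leading entries, that of pyruvate carboxylase (1 of 3 Pcx entries) had the largest fitted difference in diet response between the tissues. Pcx (chr19:4559902-4672189) was at 84.8, 51.5, 69.9 and 61.2 CPM in lean VAT and at 59.1, 34.2, 34.5 and 18.4 in obese VAT, with an overlap through obese replicate 1. The fitted level was 1.86-fold lower (log2 fold change -0.90 ± 0.25, adjusted p = 0.019). The call was lost in 4 of 17 other fits (only the 8 libraries of VAT, and without lean replicate 3, obese replicate 2 or obese replicate 4), where the log2 fold change was -0.92 to -0.66 and the adjusted p up to 0.0643. In lean SAT it was at 44.7, 37.3, 36.9 and 37.7, and in obese SAT at 60.0, 65.6, 40.9 and 37.2, where replicates 1 and 2 lay above every lean library and replicates 3 and 4 among or near them (log2 fold change 0.37, adjusted p = 0.349). The response in VAT differed from that in SAT by -1.31 ± 0.22 in log2 with the mouse as block (adjusted p = 0.00172) and did not pass without the block (adjusted p = 0.0741).

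A second Pcx entry, with 586 counts and outside the rule of leading entries, was singled out after its values were seen. It was at 0.741, 1.40, 0.380 and 0.848 CPM in lean SAT and at 7.13, 7.82, 4.20 and 3.31 in obese SAT, without overlap (log2 fold change 2.78 ± 0.39, adjusted p = 5.7e-05). In VAT it averaged 5.71 ± 1.74 CPM in lean mice and 3.11 ± 1.03 in obese mice (log2 fold change -0.84, adjusted p = 0.127). The difference of these responses was -3.62 ± 0.47 (adjusted p = 0.000105), and it passed the test in all 16 fits that were run. How reads shared by overlapping transcripts of a gene were counted is not given, so even the sum of its entries may lack some reads.

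The phosphoenolpyruvate carboxykinases did not pass the test for diet in either tissue with edgeR, DESeq2 or limma voom, and 1 of the 2 had an unadjusted p under 0.05 in each. Pck1, the cytosolic form, was at 1951, 3812, 3766 and 1831 CPM in lean SAT and at 1167, 1724, 2512 and 1454 in obese SAT, with overlap (log2 fold change -0.73 ± 0.26, adjusted p = 0.0794). In VAT it was at 3519, 5065, 5212 and 5391 in lean and at 1976, 3401, 5003 and 3091 in obese mice (log2 fold change -0.51 ± 0.26, adjusted p = 0.250). Pck2, the mitochondrial form, averaged 7.64 ± 2.13 CPM in lean VAT and 12.6 ± 4.33 in obese VAT (log2 fold change 0.59, adjusted p = 0.134).

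**Figure D4:**
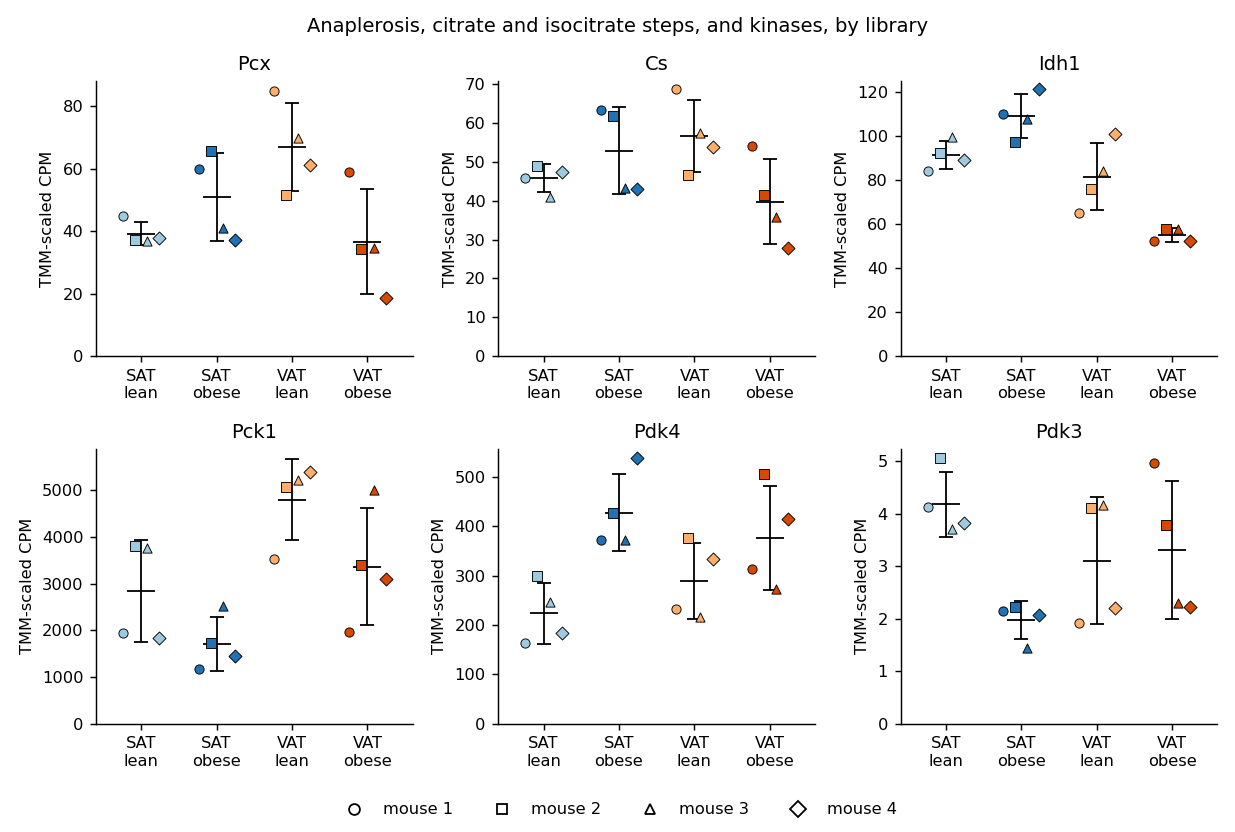
TMM-scaled CPM of Pcx, Cs, Idh1, Pck1, Pdk4 and Pdk3 in every library; each symbol is 1 mouse of the diet group, and the bar and whiskers are the mean ± SD of 4 libraries. Idh1 in VAT and both kinases in SAT show lean and obese groups that do not overlap, while Pcx and Cs in obese SAT show 2 libraries above the other 2.

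At the entry of the cycle, citrate synthase was called for the difference between the tissues but in neither tissue alone. Cs (chr10:128172837-128198363) was at 68.8, 46.7, 57.5 and 53.9 CPM in lean VAT and at 54.1, 41.4, 35.8 and 27.9 in obese VAT (log2 fold change -0.52 ± 0.18, adjusted p = 0.0707). In SAT it was at 45.9, 49.1, 40.9 and 47.5 in lean and 63.5, 61.8, 43.3 and 43.2 in obese mice (log2 fold change 0.21, adjusted p = 0.504), with replicates 1 and 2 above every lean library, as for Pcx. The responses differed by -0.72 ± 0.19 (adjusted p = 0.0492), a call lost in 10 of 16 other fits (highest adjusted p 0.179). Aco1, the cytosolic aconitase that also serves as an iron sensor, was at 35.7, 22.8, 25.9 and 31.7 in lean VAT and at 21.7, 18.4, 12.2 and 14.3 in obese VAT, without overlap (log2 fold change -0.80 ± 0.18, adjusted p = 0.00402). In SAT it was at 26.2, 25.4, 27.7 and 22.0 CPM in lean and 25.5, 22.6, 23.3 and 23.9 in obese mice, with overlap.

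Among the isocitrate dehydrogenases, Idh1 was called lower in obese VAT and Idh3b in obese SAT. Idh1, the cytosolic NADP-dependent enzyme (chr1:65196781-65225721), was at 65.0, 76.0, 84.3 and 101 CPM in lean VAT and at 52.2, 57.5, 57.8 and 52.4 in obese VAT, without overlap (log2 fold change -0.58 ± 0.13, adjusted p = 0.00388). In SAT it was at 84.3, 92.1, 99.8 and 89.2 in lean and 110, 97.5, 108 and 122 in obese mice, where 3 of 4 obese libraries were above every lean one (log2 fold change 0.26, adjusted p = 0.196). The difference of the responses was -0.81 ± 0.17 (adjusted p = 0.013) and missed the threshold only without obese replicate 4 (adjusted p = 0.0591). Its mitochondrial counterpart Idh2 had log2 fold changes of -0.41 in SAT and -0.34 in VAT, and neither passed.

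Idh3b, a subunit of the NAD-dependent enzyme of the cycle, was at 113, 112, 131 and 130 CPM in lean SAT and at 86.8, 95.9, 82.3 and 93.3 in obese SAT, without overlap (log2 fold change -0.44 ± 0.11, adjusted p = 0.0126). In VAT it was at 117, 117, 127 and 127 in lean and 78.2, 99.8, 106 and 102 in obese mice, also without overlap, but missed the test (log2 fold change -0.33 ± 0.11, adjusted p = 0.0631). With counts summed per gene it passed in VAT too (-0.38, adjusted p = 0.0261). Only 1 of its 2 entries had counts, so its own counts did not change in that fit. The call in SAT was lost without lean replicate 3, without obese replicate 3 and without the filter on low counts. Idh3a, the catalytic subunit, had log2 fold changes of -0.11 in SAT and -0.12 in VAT, and Idh3g of 0.01 and -0.43.

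Of the 5 tested genes of the later steps of the cycle, 0 passed the edgeR test for diet in either tissue. An unadjusted p under 0.05 was reached by 1 in SAT and 4 in VAT, and DESeq2 called 1 and 4 and limma voom 1 and 2. With counts summed per gene, Suclg1 (adjusted p = 0.0349), Fh1 (0.0333) and Mdh2 (0.0432) passed in VAT. These genes have 1 entry each, so summing left their own counts unchanged and only the rest of the fit differed. Dlst, the succinyltransferase of the oxoglutarate dehydrogenase complex, averaged 19.99 ± 6.12 CPM in lean VAT and 12.5 ± 2.71 in obese VAT (log2 fold change -0.64 ± 0.22, adjusted p = 0.0657). Suclg1, the shared subunit of succinyl-CoA ligase, had a log2 fold change of -0.34 in both tissues (adjusted p 0.0744 in SAT and 0.0794 in VAT). It was at 283, 305, 360 and 286 CPM in lean SAT and 232, 238, 240 and 264 in obese SAT, without overlap, and at 177, 238, 264 and 254 in lean VAT and 163, 200, 197 and 179 in obese VAT, with overlap. Fumarase (Fh1) had -0.27 and -0.39 (adjusted p 0.223 and 0.0715), and mitochondrial malate dehydrogenase (Mdh2) -0.18 and -0.27 (adjusted p 0.290 and 0.106). Mdh2 was at 410, 414, 509 and 501 CPM in lean VAT and 354, 378, 406 and 381 in obese VAT, without overlap. The standard errors of the VAT fold changes of Suclg1, Fh1 and Mdh2 were 0.12, 0.14 and 0.11. Sucla2, the ATP-forming subunit, rested on 172 counts and had standard errors of 0.75 and 0.78.

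Of the shuttle and export members, the mitochondrial aspartate aminotransferase Got2 was at 99.4, 119, 105 and 94.0 CPM in lean VAT and at 151, 129, 123 and 147 in obese VAT. It was the only member called upward in VAT (log2 fold change 0.39 ± 0.13, adjusted p = 0.0492), and the call held in 3 of 17 other fits. The cytosolic Got1 had log2 fold changes of 0.22 in SAT and 0.35 in VAT and passed neither test. Slc25a10, the dicarboxylate carrier, was at 484, 301, 539 and 558 CPM in lean SAT and at 647, 688, 319 and 325 in obese SAT, again with obese replicates 1 and 2 above every lean library and replicates 3 and 4 among the lean ones (log2 fold change 0.07, adjusted p = 0.917). Slc25a11, the oxoglutarate carrier, and the mitochondrial malic enzyme Me3, which had 99 counts, passed no diet test.

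The second question was how the members differ between VAT and SAT of the same mice. In lean mice 4 members were higher in VAT (Pdk2, Pcx, Pck1 and Got1) and 3 were lower (Mpc2, Idh3a and Suclg1), with 14.8% of all entries called (8% upward and 6.84% downward). In obese mice 4 were higher in VAT (Pck1, Pck2, Got1 and Got2) and 12 were lower (Mpc2, Pdhb, Dlat, Pdhx, Dld, Pcx, Cs, Aco1, Idh3a, Idh1, Suclg1 and Slc25a10), with 29.4% of all entries called (15.9% upward and 13.5% downward). Of the 12 lower members in obese mice, 8 were called in all 16 other fits. Pdhb was lost in 6 (without lean replicate 2 or 3, without obese replicate 1, 2 or 4, and without the 2 mice numbered 1), where its log2 fold change was -1.16 to -0.63, Pcx and Cs were each lost in 3 (no block, and without obese replicate 2 or 4), and Aco1 in 2 (without obese replicate 3 or 4). The median of the 32 members was -0.02 in lean and -0.28 in obese mice, against 0.01 and 0.04 over all entries. In lean mice 7 members were lower and 6 higher in VAT in all 4 mice, against 17.9% and 16.6% of all entries, and in obese mice 15 were lower and 6 higher, against 22.6% and 22.8%. Taking each group of 4 libraries as a whole, VAT and SAT did not overlap for 3 higher and 4 lower members in lean mice (8.83% and 8.82% of all entries) and for 2 higher and 9 lower members in obese mice (15% and 14.2%). The libraries of both the lean and the obese mice also enter the diet comparisons above, so these counts are not independent of them.

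Some differences between the tissues were present in both diets. Pck1 was higher in VAT than in SAT in 4 of 4 lean mice (1.76-fold, log2 fold change 0.82 ± 0.14, adjusted p = 0.000159) and in 4 of 4 obese mice (1.94-fold, 0.96 ± 0.14, adjusted p = 1.14e-05). Without the block the lean call was missed (adjusted p = 0.0611). Got1, the cytosolic partner in the malate-aspartate shuttle, was at 4.45, 3.23, 4.18 and 4.24 CPM in lean SAT and 7.65, 6.55, 6.09 and 8.25 in lean VAT. In obese mice it was at 4.98, 4.22, 5.50 and 4.00 in SAT and 6.48, 8.96, 8.59 and 10.9 in VAT. It was higher in VAT in all 8 mice, by 0.82 ± 0.24 in lean (adjusted p = 0.0244) and 0.92 ± 0.22 in obese mice (adjusted p = 0.00319).

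Mpc2, the other subunit of the pyruvate carrier, was at 211, 174, 181 and 208 CPM in lean SAT and 142, 155, 144 and 121 in lean VAT. In obese mice it was at 183, 227, 192 and 246 in SAT and 119, 125, 136 and 101 in VAT. All 8 VAT libraries were below all 8 SAT libraries (log2 fold change -0.46 ± 0.13, adjusted p = 0.0178, in lean and -0.82 ± 0.13, adjusted p = 4.36e-05, in obese mice). Idh3a was at 833, 861, 1010 and 867 CPM in lean SAT against 493, 595, 691 and 823 in lean VAT, and at 811, 795, 839 and 854 in obese SAT against 576, 663, 632 and 529 in obese VAT (-0.47 and -0.46, both with an SE of 0.11, adjusted p = 0.00461 and 0.00285). Suclg1 was at 283 to 360 CPM in lean SAT and 177 to 264 in lean VAT, and at 232 to 264 in obese SAT and 163 to 200 in obese VAT, likewise lower in VAT in all 8 mice (-0.41 and -0.40, both with an SE of 0.11). In lean mice the calls of Got1 (no filter on low counts, and without lean replicate 2 or 4) and Mpc2 (without lean replicate 1 or 4, and without the 2 mice numbered 1) were each lost in 3 of 16 other fits, and that of Suclg1 in 2 (without lean replicate 1 or 3). In obese mice Got1 was lost without obese replicate 4 (adjusted p = 0.0503).

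Other differences passed in a single diet. Pdk2 was at 7.41, 7.15, 7.41 and 6.99 CPM in lean SAT and 18.5, 10.4, 14.7 and 10.0 in lean VAT, without overlap (0.84 ± 0.23, adjusted p = 0.0146), and had 0.37 ± 0.23 in obese mice (adjusted p = 0.2395). Pck2 was at 6.13, 8.87, 4.61 and 6.93 CPM in obese SAT and 18.7, 8.46, 11.6 and 11.4 in obese VAT, and was higher in VAT in 3 of 4 mice (0.88 ± 0.24, adjusted p = 0.00646). Got2 was at 108, 92.8, 102 and 93.1 CPM in obese SAT, below all obese VAT libraries (0.47 ± 0.11, adjusted p = 0.00245), and at -0.05 ± 0.11 in lean mice. Pdk2 in lean mice was lost in 3 of 16 other fits (without lean replicate 1 or 3, and without the 2 mice numbered 1), Pck2 in obese mice in 3 (without obese replicate 1 or 3, and without the 2 mice numbered 1) and Got2 in obese mice in 1 (no filter on low counts). The difference between the diets did not pass for Pdk2 (adjusted p = 0.555), Pck2 (0.429) or Got2 (0.0873).

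Pcx was called in opposite directions. In lean mice it was higher in VAT in 4 of 4 (log2 fold change 0.75 ± 0.16, adjusted p = 0.00157), and in obese mice lower in VAT in 4 of 4 (-0.56 ± 0.16, adjusted p = 0.00874). The lean call held in all 16 other fits, and the obese call was lost without the block, without obese replicate 2 and without obese replicate 4 (adjusted p up to 0.112). Dlat was at -0.23 ± 0.10 (adjusted p = 0.136) in lean and at -0.96 ± 0.10 (adjusted p = 2.36e-07) in obese mice. In both diets all Dlat values in VAT were below all those in SAT. Idh1 was at -0.17 ± 0.12 (adjusted p = 0.407) in lean and -0.98 ± 0.12 (adjusted p = 2.05e-06) in obese mice. It was lower in VAT in 3 of 4 lean and 4 of 4 obese mice. Cs was at 0.29 ± 0.14 (adjusted p = 0.171) and -0.43 ± 0.13 (adjusted p = 0.0185). These 4 are the members called for the difference of the diet response described above, all downward, where 2.17% of all entries were called (1.29% downward and 0.88% upward). Without the mouse as block, or without obese replicate 4, 2 of them were called. Marker lists moved in the same comparison. Of the adipocyte markers 2 of 12 were called lower and 0 higher (median -0.32), namely Plin1, a lipid droplet coat protein (-0.77, adjusted p = 0.032), and Gpd1, which makes glycerol 3-phosphate (-0.69, adjusted p = 0.0148). Of the macrophage markers 2 of 10 were called higher (median 0.75), of the B cell markers 2 of 6 (median 1.76) and 1 of 7 endothelial markers was called lower. With edgeR, DESeq2 and limma voom 0 of 6 T cell markers and 0 of 62 respiratory chain and ATP synthase subunits (median 0.18) were called, and 1 and 8 of them had an unadjusted p under 0.05. The part of these markers in the 4 member calls was not tested. Slc25a10 was at 451, 299, 236 and 144 CPM in obese VAT and lower than in SAT in 4 of 4 obese mice (-0.83 ± 0.13, adjusted p = 3.65e-05), but its difference of responses did not pass (adjusted p = 0.206).

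Markers of cell types also differed between the tissues. Mesothelial markers, 8 of 8 tested, were higher in VAT in both diets, and were at 0.576 to 1.68 CPM in all in SAT and 263 to 649 in VAT. In obese mice 10 of 10 macrophage (median log2 fold change 1.31), 6 of 6 B cell and 6 of 6 T cell markers tested were also higher in VAT, and 7 of 12 adipocyte markers were lower and 1 higher (median -0.59). In lean mice 5 of 10 macrophage (median 0.52), 5 of 6 B cell and 3 of 6 T cell markers were higher in VAT, and 2 of 12 adipocyte markers were lower and 1 higher (median -0.11). Of the 62 respiratory chain and ATP synthase subunits 16 were lower and 0 higher in VAT of lean mice (median -0.29), and 10 were lower and 1 higher in obese mice (median -0.17). Intestinal epithelium markers were higher in VAT for 4 of 6 in lean and 1 of 6 in obese mice, and brown and beige adipocyte markers for 0 of 6 and 4 of 6. Endothelial markers were called for 0 of 7 in lean mice, and in obese mice 1 was higher and 2 were lower. For both lists in lean mice DESeq2 and limma voom also called 0, and 0 had an unadjusted p under 0.05 with edgeR. Only 3 skeletal muscle and 3 exocrine pancreas markers could be tested; in lean mice 1 muscle marker was higher and 1 lower and 2 pancreas markers were higher and 1 lower, and in obese mice 2 muscle markers were higher and 1 pancreas marker was higher and 1 lower. The part of these markers in the differences between VAT and SAT was not tested.

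**Figure D5:**
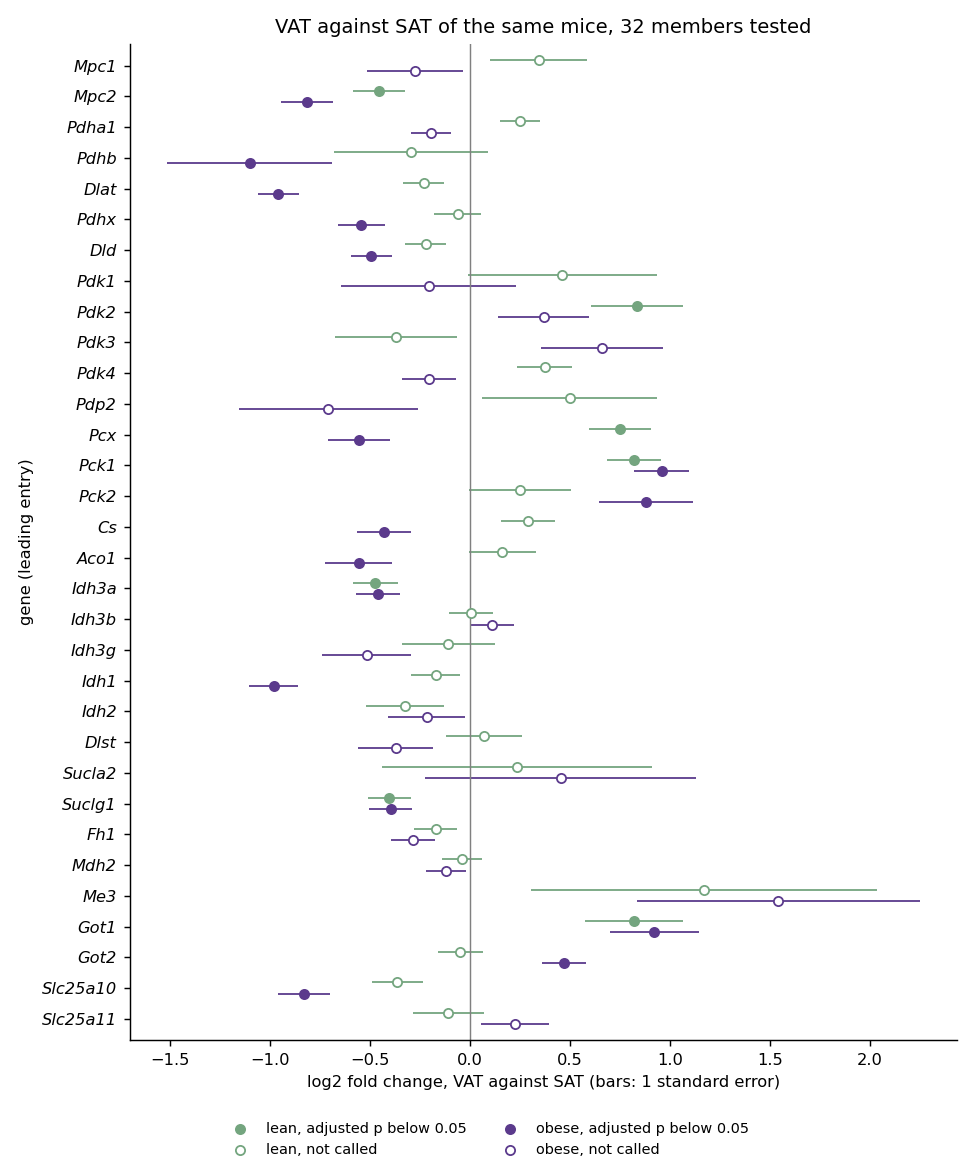
Log2 fold change of VAT against SAT of the same mice for the 32 members tested, in lean (green) and obese (purple) mice, with bars of 1 standard error; filled points passed an adjusted p of 0.05. Pcx lies above 0 in lean and below 0 in obese mice, and 12 members are filled below 0 in obese mice against 3 in lean mice.

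Genes next to the pathway were taken from a list of 33 (other enzymes and carriers of the same metabolism, and regulators), of which 22 were tested. The list was chosen with earlier results of these data known. In VAT 9 of the 22 were lower in obese mice and 0 were higher (4.09% and 6.82% of all entries), with a median log2 fold change of -0.52 against 0.02 over all entries. Sdha, the flavoprotein of succinate dehydrogenase, went from 1515 ± 260 CPM in lean VAT to 1064 ± 140 in obese VAT (-0.51 ± 0.14, adjusted p = 0.0175). Lias, which makes the lipoyl group carried by Dlat and Dlst, was at -0.58 ± 0.16 (adjusted p = 0.0213). The alanine aminotransferase Gpt was at -0.60 ± 0.17, the monocarboxylate transporter Slc16a1 at -0.54 ± 0.16 and the carbohydrate-responsive regulator Mlxipl at -1.05 ± 0.31.

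In SAT 5 of the 22 neighbours were higher and 1 was lower in obese mice (6.2% and 4.85% of all entries). Cytosolic malic enzyme (Me1), which makes NADPH, went from 45.7 ± 5.76 CPM in lean SAT to 119.5 ± 19.98 in obese SAT (log2 fold change 1.39 ± 0.19, adjusted p = 5.92e-05), and from 84.9 ± 19.0 to 47.2 ± 16.64 in VAT (-0.85 ± 0.20, adjusted p = 0.00588). The mitochondrial citrate exporter Slc25a1 rose in SAT (506 ± 56.1 to 743 ± 113, 0.55 ± 0.12) and fell in VAT (722 ± 76.3 to 430 ± 43.4, -0.75 ± 0.12). Acss2, which makes acetyl-CoA from acetate, rose in SAT (1.88 ± 0.18, adjusted p = 4.83e-07), as did Ogdhl (0.96 ± 0.28), while Mlxipl fell (-1.17 ± 0.27). ATP citrate lyase (Acly) fell in VAT (-1.43 ± 0.39, adjusted p = 0.0176) and was at 0.76 in SAT (adjusted p = 0.216). The diet responses differed between the tissues for 4 of the 22 (2.17% of all entries, 1.29% downward), in the same direction as for the 4 members: Me1 by -2.26 ± 0.22, Acly by -2.12 ± 0.32, Acss2 by -1.57 ± 0.17 and Slc25a1 by -1.30 ± 0.16 (adjusted p 1.24e-06, 0.000793, 8.27e-06 and 7.83e-05). The paper already lists Me1 and Slc25a1 as changed in opposite directions in SAT and VAT of these mice. The share called among the neighbours is therefore no independent support.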

How the data were processed

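Poly(A) RNA of 16 libraries (SAT and VAT of 4 lean and 4 obese mice) was sequenced in paired ends. According to the methods and the submitters' processing notes, the authors trimmed reads with Trim Galore, aligned them with HISAT2 2.2.0 to GRCm39 with its RefSeq annotation and counted them with HTSeq 0.13.5. The table deposited by the authors holds 16 columns of raw counts, not normalized, and 16 columns of CPM, which the authors scaled to each library's total. The strand setting and the handling of reads shared by several transcripts are not given in the sources used here. Symbols were assigned by RefSeq identifier, gene positions by symbol from GENCODE on GRCm39, and promoters by symbol from RefSeq on GRCm38.p6 (34 of 37 members matched).

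Entries that reached more than 1 CPM in 3 or more libraries (13288) were all fitted in R 4.3.3 by edgeR 4.0.16, with TMM factors, the legacy form of its quasi-likelihood F-test and Benjamini-Hochberg adjustment. A member was called at an adjusted p below 0.05. Diets were compared within each tissue in a model of the 4 groups. VAT and SAT, and the difference of the diet response between them, were compared with the mouse as a block, since the methods control for paired samples. Same-numbered SAT and VAT libraries of a diet were taken to come from 1 mouse. Their deviations from the group means correlated at a median of 0.0759 (8 pairs, -0.009 to 0.173). Pairs from different mice of 1 diet gave -0.0392 (24 pairs, -0.154 to 0.121), so the ranges overlap. Same-numbered lean and obese libraries of 1 tissue, which are different animals, gave 0.0679 (8 pairs, -0.0942 to 0.173). These correlations therefore cannot show that the numbers mark the mouse. Errors of fold changes are standard errors and those of levels are SD. No libraries of a group agreed within counting noise (lowest chi-square per degree of freedom 7.98). CPM in the text is the count divided by the library total and the TMM factor, on the CPM scale.

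All 37 members are named, with library values of both groups for each call in the edgeR tests, and the neighbours called in a diet test or in the difference between tissues. Some genes under this rule are counted but not reported here. The members and lists were chosen with earlier results of these data known. The scripts were tested on simulated data. Alternatives were RLE size factors, no filter on low counts, filterByExpr, only the 8 libraries of a tissue, a replicate block (or none), DESeq2 1.42.0, limma voom 3.58.1, counts summed per gene, each mouse left out in turn and, chosen after seeing the depths, a fit without the 2 mice numbered 1.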

Additional observations from a re-analysis of the deposited data

Results flagged for a closer look

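The diet response differed between VAT and SAT, by the test of the difference itself, for Dlat (-0.73 in log2, adjusted p = 0.0067), Pcx (-1.31, adjusted p = 0.00172), Cs (-0.72, adjusted p = 0.0492) and Idh1 (-0.81, adjusted p = 0.013), all from edgeR's quasi-likelihood F-test with the mouse as a block. The call of Dlat was kept in all 16 other fits, that of Pcx was lost without the block (adjusted p = 0.0741), that of Idh1 without obese replicate 4 (0.0591), and that of Cs in 10 of 16 (up to 0.179). In 6 of 128 groups of 4 libraries, 1 library stood apart from the other 3, where chance gives about 1 in 20, or 6.4. Mpc1 was at 4.01 CPM in obese VAT replicate 3 and at 4.57 to 4.69 in the others. Pcx was at 44.7 CPM in lean SAT replicate 1, above 36.9 to 37.7. Dlst was at 23.0 CPM in lean SAT replicate 3, above 16.1 to 17.0. Sucla2 was at 7.24 CPM in obese VAT replicate 1, against 0.171 to 0.955, and Me3 at 0.528 in obese SAT replicate 2, against 0.275 to 0.308. Slc25a11 was at 8.70 CPM in lean VAT replicate 2, below 11.5 to 12.0.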

How the results depend on the processing

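Of 40 single calls on members, 18 passed the test in every alternative, among them Pdk4 in SAT, Pdha1, Dlat, Pdhx, Aco1 and Idh1 in VAT, and Dlat in the difference between tissues. Over 653 refits of these calls, 566 kept direction and threshold, 87 missed the threshold and 0 reversed. Causes were not tested. The count of members downregulated in SAT (2) was 4 with only the 8 libraries of the tissue, with DESeq2, with limma voom and without the 2 mice numbered 1, whose VAT libraries are the shallowest. With the replicate block it was 5; lean and obese mice share only a number (correlation of deviations at a median of 0.0679, -0.0942 to 0.173), so that fit is not a paired test. Got2, the 1 member upregulated in VAT, was lost (count 0) with RLE size factors, no filter, filterByExpr, only the 8 libraries of VAT, limma voom, counts summed per gene and without the 2 mice numbered 1. The 9 downregulated in VAT became 14 with DESeq2. In the difference between tissues, DESeq2 called 1 member upward (0 in edgeR, where 11 of the 32 had an unadjusted p under 0.05 in either direction), and 2 instead of 4 were called downward with no replicate block, that is, without the mouse. Leaving out 1 mouse in turn gave 1 to 1 higher and 1 to 5 lower members in SAT, 0 to 1 and 5 to 12 in VAT, 3 to 4 and 2 to 3 for VAT against SAT in lean mice, 3 to 4 and 8 to 14 in obese mice, and 0 higher and 2 to 4 lower for the difference. The lowest counts in VAT (5) came without lean replicate 3, obese replicate 2 or obese replicate 4; those in SAT (1) without lean replicate 2, lean replicate 3 or obese replicate 3; that of the difference (2) without obese replicate 4. Genes with few counts limit the result: 10 of the tested leading entries had a mean CPM under 10.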

Other observations

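Obese SAT libraries fell into replicates 1 and 2 against replicates 3 and 4 for several members. Pdk2, a kinase of the PDH complex, was at 8.90 and 9.61 CPM in replicates 1 and 2 and at 4.40 and 4.77 in replicates 3 and 4, while its 4 lean SAT libraries lay between 6.99 and 7.41. Slc25a10 (647 and 688 against 319 and 325 CPM), Cs (63.5 and 61.8 against 43.3 and 43.2) and Pcx (60.0 and 65.6 against 40.9 and 37.2) split the same libraries. These genes were singled out after their values were seen, and the split was not tested.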
